A study of Mus musculus with 2 samples.

Results

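The genes described here are 10 members of the bone morphogenetic protein (BMP) pathway, chosen by symbol from the 32285 genes measured in mouse liver endothelial preparations. They comprise the ligands *Bmp2*, *Bmp4* and *Bmp6*, the receptors *Eng*, *Acvrl1* and *Bmpr2*, and the target genes and inhibitors *Id1*, *Id3*, *Smad6* and *Smad7*. Each symbol matched 1 row of the gene list, so that all 10 members were found. Single-cell RNA-seq of CD146-selected liver cells gave 1 control library and 1 Maf LSEC-KO library, each made from the pooled livers of 3 mice. Maf LSEC-KO mice carried the *Clec4g-iCre* transgene (tg/wt) and 2 floxed *Maf* alleles (fl/fl), and the control mice were littermates without the transgene that carried floxed *Maf* on both alleles or on 1. Cre was driven by regulatory sequence of *Clec4g*, a lectin gene of liver sinusoidal endothelial cells (LSECs), so cells in which this driver was inactive kept *Maf*. The labels give the genotypes only as WT and KO, and the age and sex of the pooled mice were not given in the labels. The comparison asks how BMP ligand, receptor and target transcripts differ when LSECs lack c-Maf, a bZIP transcription factor, and which liver cells carried them.

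BMPs are secreted dimers that bind a type I and a type II receptor, and the type I receptor phosphorylates SMAD1, SMAD5 and SMAD8, which enter the nucleus with SMAD4. In endothelium, ALK1 (*Acvrl1*) with BMPR2 and the co-receptor endoglin (*Eng*) responds to BMP9 (*Gdf2*) and BMP10. *Id1*, *Id3*, *Smad6* and *Smad7* are classical targets, and SMAD6 and SMAD7 act back on the pathway as inhibitors. In the liver, BMP2 and BMP6 released by LSECs induce hepcidin in hepatocytes and thereby control systemic iron.

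On the mm10 reference, in GENCODE M21 coordinates, the ligand genes lie at chr2:133552159-133562885 (*Bmp2*), chr14:46383520-46390669 (*Bmp4*, minus strand) and chr13:38345107-38500302 (*Bmp6*). The receptor genes lie at chr2:32646595-32682669 (*Eng*), chr15:101128522-101145336 (*Acvrl1*) and chr1:59763400-59879014 (*Bmpr2*). The targets lie at chr2:152736251-152737410 (*Id1*), chr4:136143497-136145755 (*Id3*), chr9:63953076-64022059 (*Smad6*, minus strand) and chr18:75367529-75395935 (*Smad7*). All these are protein-coding genes, and the values are molecules counted from the 3′ end of the transcripts of the whole gene.

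After removal of low-count barcodes and doublets, 4101 control and 3242 Maf LSEC-KO LSECs remained, with medians of 8395 and 13870.5 unique molecular identifiers (UMIs) per cell, and 10 barcodes occurred in both libraries. LSECs were the cells of endothelial clusters without a *Vwf* UMI, and they carried a median of 12 (control) and 13 (Maf LSEC-KO) of 14 endothelial markers, of which *Eng* is 1. Levels are given as CPM, the UMIs of a gene summed over the cells of a class and scaled to 1000000 UMIs of that class, with mitochondrial genes and ribosomal protein genes left out of the total. *Maf* was at 3472 CPM in control and at 124.5 CPM in Maf LSEC-KO LSECs, 27.9-fold lower. With 1 library per condition there is no replicate check and no test between conditions; all intervals are 95% intervals that cover counting error only. Of the 8 immediate early genes examined, which are induced within minutes by many stimuli including tissue dissociation, 7 were at least 2-fold higher in Maf LSEC-KO LSECs, and their summed level was 1027 CPM in control and 2842 CPM in Maf LSEC-KO LSECs. The part of this difference, and of the difference in depth, in the values below was not tested unless a value is given.

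Among the members, *Bmp2* and *Bmp6* were lower in Maf LSEC-KO LSECs, as were *Eng* and *Bmpr2*, whereas *Id1*, *Smad7* and *Acvrl1* were higher. *Id3* and *Smad6* differed little. Of the 10 members, 9 reached 10 CPM in either library. Among these, *Id1* was at least 2-fold higher, against 10.4% of the 9302 genes tested, and no member was at least 2-fold lower, against 4.54%. The median log2 ratio was 0.11 over these 9 members and 0.14 over all genes tested. Over all genes, 970 were at least 2-fold higher and 422 at least 2-fold lower, and with levels scaled to all UMIs these numbers were 681 (7.64%) and 577 (6.48%).

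*Bmp2*, the ligand with the highest count in LSECs, measured 1936 CPM (1921 to 1951) in control LSECs and 1122 CPM (1111 to 1132) in Maf LSEC-KO cells. The log2 ratio of Maf LSEC-KO over control was -0.79 (-0.80 to -0.77), a level 1.73-fold lower, and among LSECs with few immediate early UMIs, described with *Id1*, it was -1.06, past 2-fold, as were 3.89% of the 9306 genes tested in those cells. *Bmp2* UMIs were found in 96.0% of control and 90.6% of Maf LSEC-KO LSECs, and at an equal depth of 2700 UMIs per cell, which left out 406 and 187 shallower LSECs, in 94.1% and 76.4%. Lymphocytes, which should lack this transcript, gave 27.5% and 12.6% at that depth, from medians of 6959.5 and 5857 UMIs, so endothelial RNA was also counted in cells of other types in both libraries. Among these, 47 control B cells carried it at 68.0% of the LSEC level and 29 control T/NK cells at 17.4%, and how it came to these barcodes was not tested.

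*Bmp6*, the ligand that responds to iron in LSECs, measured 160.4 CPM (156.1 to 164.8) in control LSECs and 87.5 CPM (84.6 to 90.4) in Maf LSEC-KO cells. Its log2 ratio was -0.87 (-0.94 to -0.81), 1.83-fold lower, and -1.07, past 2-fold, with scaling to all UMIs. With all UMIs as the scale, 6.48% of the genes tested were at least 2-fold lower. In the main scaling 5.69% of the genes tested had a lower ratio. The share of LSECs with a UMI at 2700 UMIs per cell was 29.5% among control and 15.97% among Maf LSEC-KO cells, against 5.80% and 5.26% of lymphocytes. *Bmp4* was near the detection limit in LSECs, with 81 UMIs (2.47 CPM) in control and 89 UMIs (2.23 CPM) in Maf LSEC-KO LSECs. Its log2 ratio of -0.15 had an interval from -0.60 to 0.30, and it depended on which cells were included. In control, the cluster led by *Rspo3* and *Bmp4* held 72 of the 81 UMIs, and in the Maf LSEC-KO library the *Dcn*-led cluster described with the other clusters held 59 of the 89. Leaving out the *Dcn*-led cluster alone gave -1.69, leaving out LSECs with UMIs of stellate genes gave -0.90, and keeping cells with a *Vwf* UMI gave 0.91, so no direction is given for *Bmp4* in LSECs.

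Among the receptors, *Eng*, the co-receptor that presents BMP9 and BMP10, measured 1958 CPM (1943 to 1973) in control LSECs and 1365 CPM (1354 to 1377) in Maf LSEC-KO cells. This gave a log2 ratio of -0.52 (-0.54 to -0.50). *Bmpr2*, the type II receptor, was at 790.0 CPM (780.4 to 799.7) and 584.7 CPM (577.2 to 592.2), with a log2 ratio of -0.43 (-0.46 to -0.41). *Acvrl1*, which encodes the type I receptor ALK1, differed in the other direction. It measured 43.5 CPM (41.3 to 45.8) in control LSECs and 62.2 CPM (59.8 to 64.7) in Maf LSEC-KO cells, with a log2 ratio of 0.52 (0.42 to 0.61). The type I receptor was thus higher where the type II receptor and the co-receptor were lower, each by less than 2-fold.

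*Id1*, which encodes a helix-loop-helix inhibitor of differentiation and is a sensitive target of ALK1 signals, was at 96.7 CPM (93.4 to 100.1) in control LSECs. In Maf LSEC-KO LSECs it was at 251.6 CPM (246.8 to 256.6), 2.60-fold higher, with a log2 ratio of 1.38 (1.32 to 1.44), and 93.4% of the genes tested had a lower ratio. A UMI of *Id1* was present in 39.8% of control LSECs (38.3 to 41.3, Clopper-Pearson) and in 72.4% of Maf LSEC-KO LSECs (70.8 to 73.9). At 2700 UMIs per cell the shares were 18.4% and 34.8%, against 5.80% and 4.21% of lymphocytes, so the higher level went with more *Id1*-positive cells at equal depth. *Id1* also responds to stimuli other than BMPs. Among LSECs with few immediate early UMIs (at or below the control median, 2051 control and 669 Maf LSEC-KO cells), where the immediate early genes summed to 344 and 465.1 CPM, the log2 ratio of *Id1* was 1.25.

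*Id3*, a paralog of *Id1*, measured 869.9 CPM (859.8 to 880.0) in control LSECs and 936.8 CPM (927.3 to 946.3) in Maf LSEC-KO cells. Its log2 ratio of 0.11 (0.08 to 0.13) became -0.08 under scaling to all UMIs and -0.05 under TMM factors, so no direction is given for it. *Smad7*, the inhibitor shared with the TGF-β pathway, measured 270.5 CPM (264.9 to 276.2) in control LSECs and 434.2 CPM (427.7 to 440.7) in Maf LSEC-KO cells, with a log2 ratio of 0.68 (0.65 to 0.72). *Smad7* had a log2 ratio of 0.51 in LSECs with few immediate early UMIs.

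*Smad6*, the inhibitor specific to BMP signals, measured 180.4 CPM (175.8 to 185.0) in control LSECs and 203.5 CPM (199.1 to 208.0) in Maf LSEC-KO cells. Its log2 ratio of 0.17 (0.13 to 0.22) was -0.02 both with scaling to all UMIs and in LSECs with few immediate early UMIs. The *Smad6* promoter is shown because it is the only one of 6 members' promoters in the RefSeq table (GRCm38.p6) with the palindromic Smad-binding element GTCTAGAC, searched on both strands in windows of 300 bases, from 250 before to 50 after the start. It is printed for chr9:64022056-64022309, minus strand, from 250 bases before the start to base 4 of the transcript, with the palindrome in capitals:
Smad6: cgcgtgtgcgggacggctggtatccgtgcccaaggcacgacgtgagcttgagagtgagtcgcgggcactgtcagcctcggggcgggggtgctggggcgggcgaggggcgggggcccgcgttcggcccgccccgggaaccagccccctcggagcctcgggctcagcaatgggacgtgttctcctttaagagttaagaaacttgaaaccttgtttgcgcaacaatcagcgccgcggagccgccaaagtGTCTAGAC
These letters occur in 0.213% of the 32851 promoters of the table. The GC-rich palindrome GGCGCC was found in 1 of the 6 promoters (*Bmpr2*), against 11.9% of all promoters. The Maf half-site TGCTGA, on either strand, was found in 1 (*Smad6*, 90 bases before the start), against 19.5%. The other members in the table were *Bmp4*, *Bmp6*, *Eng* and *Id3*. A match describes the letters in the window and was not tested for binding.

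**Figure D1:**
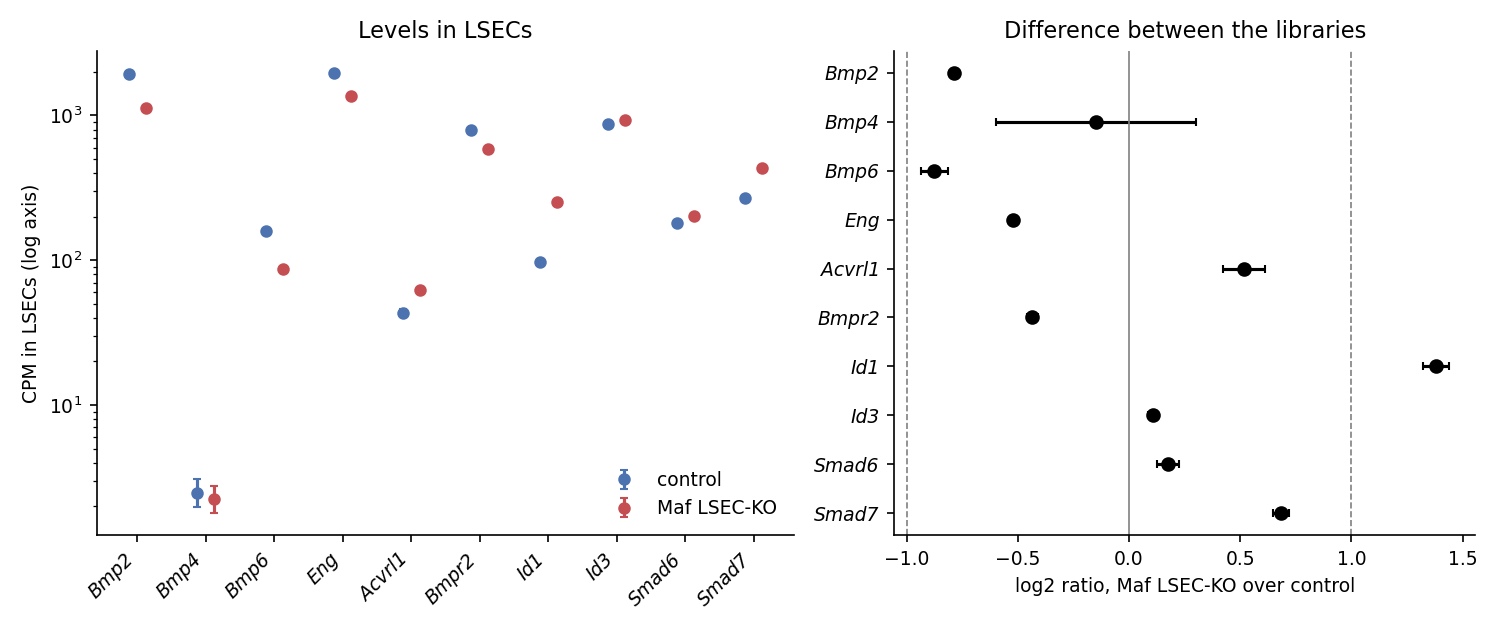
Left, CPM of each member in control (blue) and Maf LSEC-KO (red) LSECs on a log axis; right, log2 ratio of Maf LSEC-KO over control, with dashed lines at 2-fold. Bars are 95% counting intervals; *Id1* lies beyond the upper line at 1.38, while *Bmp2* and *Bmp6* lie between 0 and the lower line at -0.79 and -0.87.

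A list of 57 further genes of the pathway put these values in context: 23 reached 10 CPM in LSECs, of which 9 were higher and 14 lower in the Maf LSEC-KO library, with a median log2 ratio of -0.13. The median over all genes tested was 0.14. Of the 23 list genes, 4 were at least 2-fold lower, against 4.54% of the 9302 genes tested, and 1 at least 2-fold higher, against 10.4%. Of the 16 other ligands in the list, *Inhbb*, which encodes the activin βB subunit, was the one that reached 10 CPM. It was at 41.7 CPM in control and 12.5 CPM in Maf LSEC-KO LSECs (log2 -1.74). Of 8 further receptors tested, 6 were lower, and 2 of them at least 2-fold, against 4.54% of all genes tested. *Tgfbr3*, the co-receptor betaglycan, was at 238.7 and 100.2 CPM (log2 -1.25), and *Tgfbr2*, the type II TGF-β receptor, at 233.1 and 110.6 CPM (log2 -1.08). *Tgfbr2* was under the 2-fold limit when levels were averaged over cells, at equal depth, with *Vwf*-positive cells included and without cycling cells. The type I receptor *Acvr1* (ALK2) was at 61.8 and 41.2 CPM (log2 -0.59).

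The SMAD transducers were closer to the control level: 7 of 8 were tested and none differed 2-fold, with a median log2 ratio of -0.13. *Smad1* was at 130 and 98.9 CPM (log2 -0.39), *Smad5* at 52.3 and 36.4 CPM (log2 -0.52), and the shared partner *Smad4* at 123.6 and 112.6 CPM (log2 -0.13). Among the further targets, *Id2* was at 249 and 344.9 CPM (log2 0.47). *Id4* was the *Id* gene with the opposite pattern to *Id1*, at 163.7 CPM (159.4 to 168.2) in control LSECs and 36.2 CPM (34.3 to 38.1) in Maf LSEC-KO cells, 4.53-fold lower. The 4 *Id* genes thus spread from a log2 ratio of -2.18 (*Id4*) to 1.38 (*Id1*). *Fstl1*, which encodes a secreted BMP antagonist, was the list member at least 2-fold higher, at 2.74 and 17.2 CPM (log2 2.65). It reached 10 CPM in the Maf LSEC-KO library alone, so this is a description.

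The members also differed between clusters of LSECs within each library, where each cluster was named by its leading genes. Control cluster 6 and Maf LSEC-KO cluster 5 both had *Gja5*, *Jag1* and *Nrg1* among their leading genes. In each, 3 large-vessel markers and none of the endothelial list were among the 50 leading genes. A *Vwf* UMI was present in 67 of 245 control and 259 of 371 Maf LSEC-KO cells, and the values below are for the 178 and 112 cells without one, counted among LSECs by that rule alone. These cells held the least *Bmp2* among control clusters, at 918.2 CPM (866.7 to 972.0). The other control clusters ranged from 1220 to 2134 CPM. Among Maf LSEC-KO cells this cluster held *Bmp2* at 526.8 CPM (488.2 to 567.7). *Id1* was highest there in both libraries, at 240.2 CPM (214.2 to 268.5) for control and 469.4 CPM (433.0 to 508.1) for Maf LSEC-KO cells. *Id1* lay between 75.7 and 96.3 CPM in the other control clusters and between 146.1 and 351.9 CPM in the other Maf LSEC-KO clusters. The 240.2 CPM of control cluster 6 fell within the latter range.

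In the same cluster *Bmpr2* was at 1103 CPM (1046 to 1161) for control and 810.9 CPM (762.8 to 861.2) for Maf LSEC-KO cells, the highest value in each library. *Smad6* was at 270.4 and 261.1 CPM there, also the highest value in each library, and *Acvrl1* at 75.9 and 90.3 CPM. *Bmp6* was at 68.2 CPM in the control and 49.0 CPM in the Maf LSEC-KO cells of this cluster. Low levels of *Bmp2* and *Bmp6* and high levels of *Id1*, *Bmpr2* and *Smad6* thus met in this cluster. Its *Bmp2* and *Bmp6* were not the lowest of the Maf LSEC-KO library. There *Bmp2* was at 147.3 CPM in cluster 8, and *Bmp6* at 34.5 and 24.3 CPM in clusters 7 and 8. The clusters were built from all genes, including the members, so these differences are descriptions.

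Maf LSEC-KO cluster 6 (198 LSECs) kept *Maf* at 2334 CPM. It held *Bmp6* at 150.9 CPM (132.8 to 170.8), against 160.4 CPM in all control LSECs, and *Id1* at 146.1 CPM (128.3 to 165.6), the lowest value among the Maf LSEC-KO clusters. Its *Bmp2*, at 1305 CPM (1251 to 1361), stayed under the 1936 CPM of control LSECs. Maf LSEC-KO cluster 8, led by *Dcn*, *Ccl21a* and *Rarres2*, is left unnamed. Its 79 cells without *Vwf* were counted among LSECs. In this cluster 12 of 14 endothelial markers were each found in at least 50% of the cells, but 5 stellate and 0 endothelial markers were among its 50 leading genes. Control cluster 8 had 13 of 14 endothelial markers by the same rule, with 4 stellate and 3 hepatocyte markers among its leading genes. That control cluster was left unnamed, and 130 cells of it were not counted among LSECs, so the 2 clusters were treated differently. Maf LSEC-KO cluster 8 stood apart with *Bmp2* at 147.3 CPM, *Bmpr2* at 310.4 CPM and *Id1* at 351.9 CPM. *Dcn*, a stellate marker, was at 1346 CPM in it, against at most 26.4 CPM in the other Maf LSEC-KO clusters. Its part in these values was not tested. Without this cluster the same members and list genes were past 2-fold. This also held without all 5 endothelial clusters that had at least 3 large-vessel or at least 3 stellate markers among their leading genes, where the log2 ratio was 1.38 for *Id1*, -0.76 for *Bmp2*, -0.83 for *Bmp6* and 0.70 for *Smad7*.

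**Figure D2:**
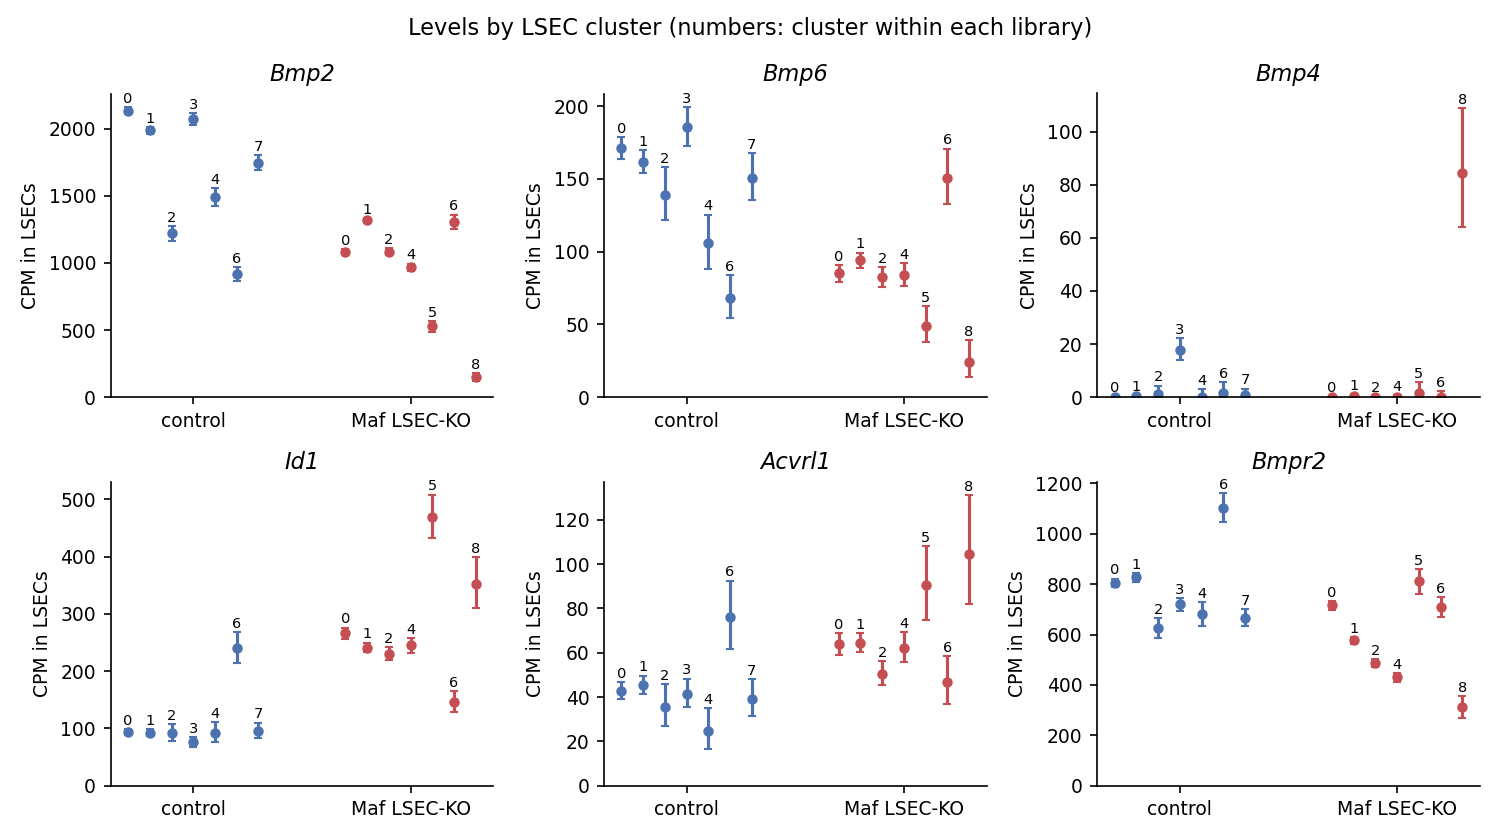
CPM of 6 members in each LSEC cluster with at least 50 LSECs, control in blue and Maf LSEC-KO in red, with 95% counting intervals; numbers are the clusters of each library. Control cluster 6 and Maf LSEC-KO cluster 5, which share the leading genes *Gja5*, *Jag1* and *Nrg1*, show *Id1* at 240.2 and 469.4 CPM, and Maf LSEC-KO cluster 6, which kept *Maf*, shows *Bmp6* at 150.9 CPM.

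Along the sinusoid, *Bmpr2*, *Acvrl1*, *Id1*, *Smad6* and *Smad7* were higher in portal control LSECs, and *Bmp2*, *Bmp6*, *Eng* and *Id3* in central ones. LSECs were ordered by a score of 6 portal and 6 central landmark genes, none of them a member, and divided into 4 zones of equal size, from zone 1 (central) to zone 4 (portal), of 1019 control and 795 Maf LSEC-KO cells each. Landmarks were lacking in 25 and 62 LSECs. The LSECs ordered by the score were not cleared of the *Gja5*-led clusters, with 178 control (cluster 6) and 112 Maf LSEC-KO (cluster 5) cells. The landmarks *Ltbp4* (portal) and *Rspo3* (central) are also on the list of large-vessel markers. The part of large-vessel clusters in the gradients below was not tested. None of the 9 members that reached 10 CPM differed 2-fold between the portal and the central zone of either library. In control LSECs, 1.42% of the genes tested were at least 2-fold higher and 1.99% at least 2-fold lower in the portal zone, and in Maf LSEC-KO LSECs 0.571% and 1.45%. Of 22 list genes tested in control, *Hes1* (165.6 CPM central, 468.2 CPM portal) and *Bmper* (5.39 and 16.8 CPM) were at least 2-fold higher in the portal zone. *Bmper* reached 10 CPM in the portal zone alone, so its difference is a description. *Bambi* was at least 2-fold lower there (29.6 and 13.2 CPM). Of 23 tested in Maf LSEC-KO LSECs, *Id4* was at least 2-fold lower in the portal zone (log2 -1.05). Gradients of less than 2-fold were present in both libraries. Portal control LSECs were shallower, with a median of 5870 UMIs against 8600 in the central zone.

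*Bmpr2* went from 653.2 CPM in the central zone through 733.7 and 869.0 to 932.9 CPM in the portal zone of control LSECs (log2 portal over central 0.51, 0.46 to 0.57). In Maf LSEC-KO LSECs it was at 470.2, 570.0, 684.8 and 652.7 CPM (log2 0.47). *Smad6* was at 159.3, 158.4, 189.0 and 226.5 CPM in control (log2 0.51) and at 157.3, 202.8, 240.7 and 225.2 CPM in Maf LSEC-KO LSECs (log2 0.52). In the central and the portal zone the counting intervals of *Smad6* overlapped between the libraries. *Acvrl1* had log2 ratios of 0.40 (control) and 0.46 (Maf LSEC-KO), and *Smad7* of 0.32 and 0.33, so both were higher in the portal zone of either library. With the outer 10% of LSECs at each end as zones, the control value of *Acvrl1* was 0.0090 (-0.42 to 0.43), and its direction was lost.

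*Id1* was at 81.7 CPM in the central and 121.9 CPM in the portal zone of control LSECs (log2 0.58, 0.43 to 0.73). In Maf LSEC-KO LSECs it was at 223.8, 246.3, 283.6 and 261.1 CPM (log2 0.22, 0.13 to 0.31). Every Maf LSEC-KO zone was above every control zone for *Id1*, and the share of all genes for which this held was not determined. *Bmp2* ran the other way, from 2054 CPM in the central to 1595 CPM in the portal zone of control (log2 -0.36) and from 1205 to 947.2 CPM in Maf LSEC-KO LSECs (log2 -0.35). *Bmp6* was at 170.6 and 141.6 CPM in the central and portal zones of control LSECs (log2 -0.27, -0.39 to -0.15). In Maf LSEC-KO LSECs it was at 80.5 and 86.9 CPM (log2 0.11, -0.04 to 0.26). Whether the gradient differed between the libraries was not tested. *Eng* was at 2079 and 1776 CPM in the central and portal zones of control (log2 -0.23, -0.26 to -0.19) and at 1328 and 1339 CPM in Maf LSEC-KO LSECs (log2 0.01). *Id3* was nearly level, at 923.1 and 875.0 CPM in control (log2 -0.08) and 921.2 and 939.3 CPM in Maf LSEC-KO LSECs (log2 0.03).

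Of the 10 members, *Bmp4*, under 10 CPM in every zone, differed most between the central and the portal zone, but few cells carried it. Its UMIs came from 21 control and 30 Maf LSEC-KO LSECs. The control cluster led by *Rspo3* and *Bmp4* held 72 of the 81 UMIs, and the *Dcn*-led Maf LSEC-KO cluster held 59 of the 89. No gradient along the sinusoid is therefore read for *Bmp4*. Control LSECs gave 67 UMIs (8.40 CPM) in the central and 6 UMIs (0.942 CPM) in the portal zone, a log2 ratio of -3.16 (-4.65 to -1.96). Maf LSEC-KO LSECs gave 56 UMIs (5.44 CPM) and 13 UMIs (1.75 CPM), a log2 ratio of -1.63 (-2.63 to -0.74).

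**Figure D3:**
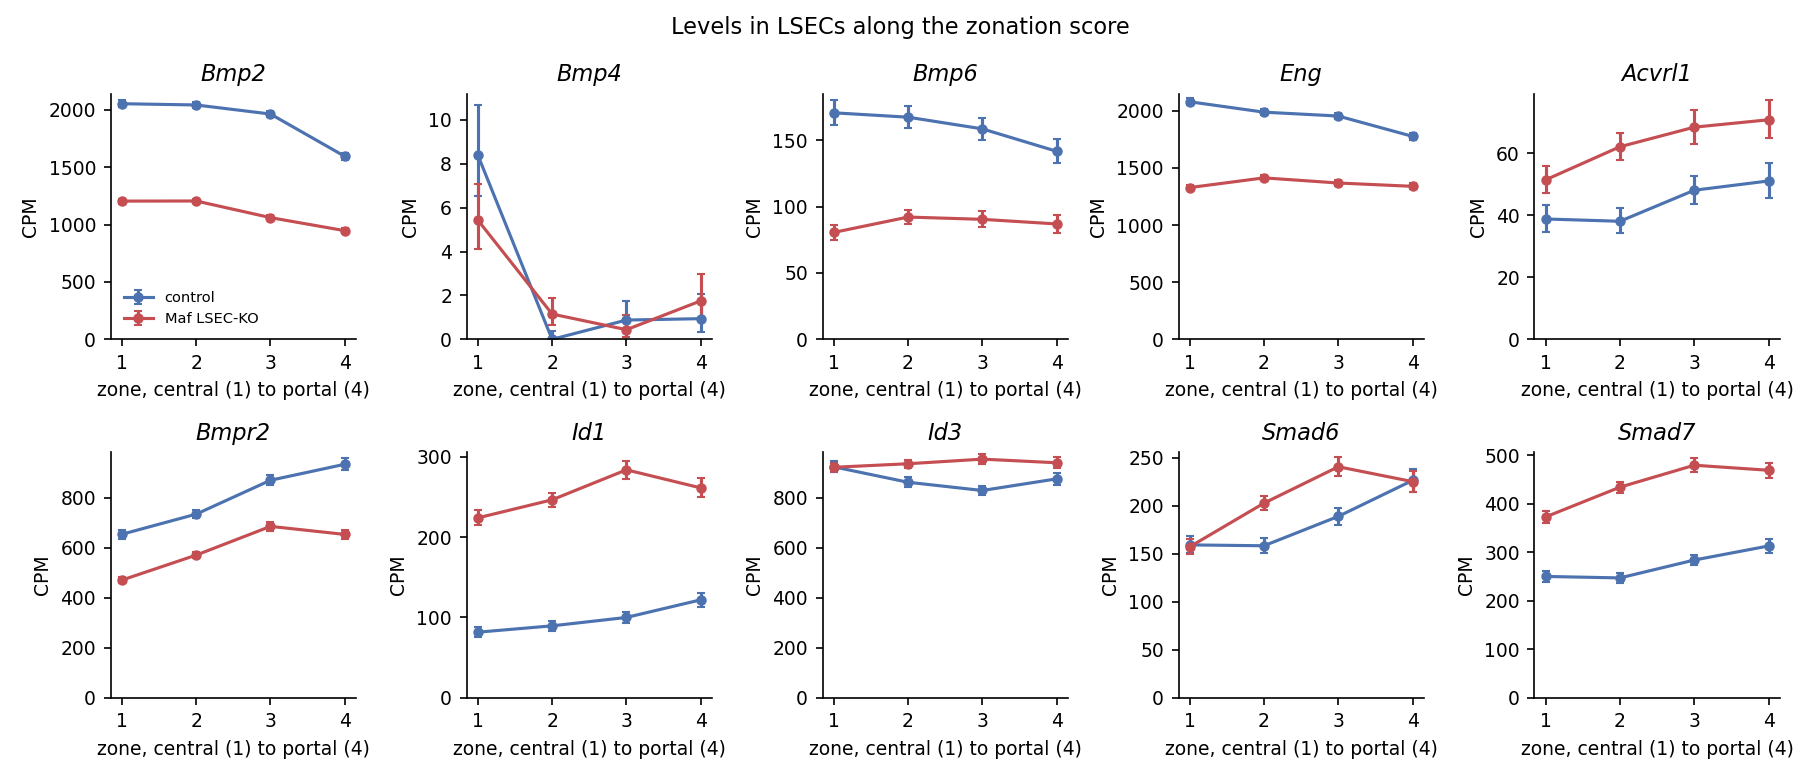
CPM of each member in 4 zones of LSECs from central (1) to portal (4), control in blue and Maf LSEC-KO in red, with 95% counting intervals. *Bmpr2* goes from 653.2 to 932.9 CPM in control while *Bmp2* goes from 2054 to 1595 CPM, and *Id1* in the Maf LSEC-KO library lies at or above 223.8 CPM in every zone.

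The Maf LSEC-KO library held LSECs that still contained *Maf* RNA, which allowed a comparison within 1 library. LSECs without a *Maf* UMI (2554 cells) were set against LSECs with at least 5 *Maf* UMIs (211 cells, *Maf* at 1988 CPM). Apart from *Bmp4*, none of the members was at least 2-fold higher (5.85% of 9401 genes) or at least 2-fold lower (4.87%) in *Maf*-negative cells. *Bmp4* reached 10 CPM in *Maf*-retaining cells alone, so its difference is a description. It gave 43 and 22 UMIs (1.42 and 10.2 CPM), a log2 ratio of -2.85 (-3.62 to -2.04). With at least 2 or at least 10 *Maf* UMIs asked for, *Bmp4* was under 10 CPM, with log2 ratios of -2.49 (-3.17 to -1.79) and -1.65 (-2.75 to -0.34). All 22 UMIs came from 4 cells of the *Dcn*-led cluster 8, which gave 11 of the 211 *Maf*-retaining cells, whereas the 169 from cluster 6 had 0 *Bmp4* UMIs. No relation of *Bmp4* to *Maf* is therefore read from these cells.

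*Id1* was at 257.9 CPM (252.2 to 263.6) in *Maf*-negative and 172.8 CPM (155.7 to 191.2) in *Maf*-retaining LSECs, a log2 ratio of 0.58 (0.43 to 0.73). LSECs with 1 to 4 *Maf* UMIs were at 249.2 CPM. *Smad7* was at 438.5 and 342.8 CPM (log2 0.36) and *Id3* at 947.9 and 735.1 CPM (log2 0.37). *Bmp6* was at 82.2 CPM (79.1 to 85.5) in *Maf*-negative and 123.7 CPM (109.3 to 139.4) in *Maf*-retaining LSECs, and at 98.3 CPM in cells with 1 to 4 *Maf* UMIs. *Bmp2* differed less, at 1090 and 1222 CPM (log2 -0.17, -0.22 to -0.11), and *Eng* was at 1358 and 1374 CPM (log2 -0.02, -0.07 to 0.04).

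*Bmpr2* was at 570.3 CPM in *Maf*-negative and 675.8 CPM in *Maf*-retaining LSECs (log2 -0.24, -0.32 to -0.17). *Maf*-retaining LSECs were thus between control and *Maf*-negative LSECs for *Bmp6*, *Bmpr2*, *Id1* and *Smad7*, and also for *Bmp2*, which lay nearer to the *Maf*-negative level. For *Eng*, *Maf*-retaining and *Maf*-negative cells were not separated (log2 interval -0.07 to 0.04). *Id3* in *Maf*-retaining LSECs was below both the *Maf*-negative level and the 869.9 CPM of control. *Smad6*, at 201.9 and 177.4 CPM (log2 0.19, 0.04 to 0.34), was near the 180.4 CPM of control in *Maf*-retaining cells. *Acvrl1* was at 62.4 and 56.5 CPM, with an interval of the log2 ratio from -0.12 to 0.42. The immediate early genes summed to 2877 CPM in *Maf*-negative and 1622 CPM in *Maf*-retaining cells. Median depth was 13627 and 10138 UMIs. The 477 cells with 1 to 4 *Maf* UMIs were deeper, at a median of 17305 UMIs, with immediate early genes at 3053 CPM. At 2700 UMIs per cell, a *Maf* UMI was found in 9.98% of Maf LSEC-KO LSECs and in 14.7% of lymphocytes of that library, and some T cells express *Maf*. Cells with 1 to 4 *Maf* UMIs are therefore not read as having kept the gene. In the pathway list, *Inhbb*, *Tgfbr2*, *Tgfbr3* and *Id4* were at least 2-fold lower in *Maf*-negative than in *Maf*-retaining cells (4.87% of all genes tested). The same 4 list genes were at least 2-fold lower between the libraries. Both comparisons contain the *Maf*-negative cells, and this overlap was not set against that of all genes.

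**Figure D4:**
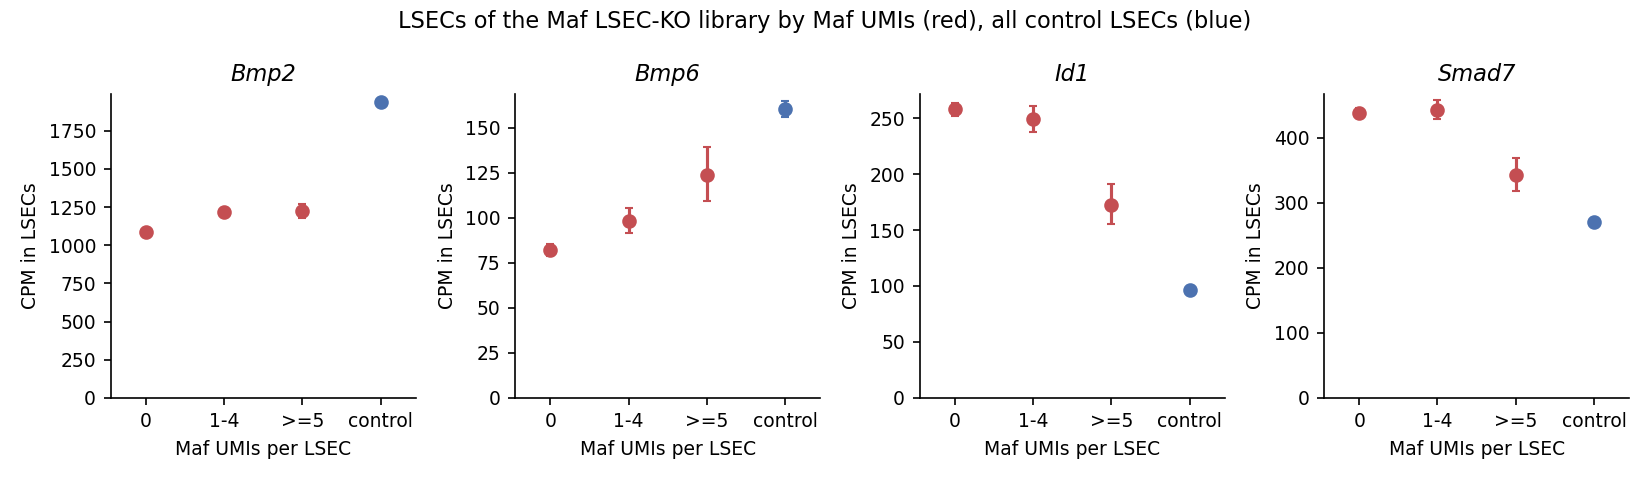
CPM of *Bmp2*, *Bmp6*, *Id1* and *Smad7* in Maf LSEC-KO LSECs with 0, 1 to 4 and at least 5 *Maf* UMIs (red) and in all control LSECs (blue), with 95% counting intervals. *Bmp6* is at 82.2 CPM with 0 and at 123.7 CPM with at least 5 *Maf* UMIs, whereas *Bmp2* is at 1090 and 1222 CPM.

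*Bmp4* was found mainly outside LSECs. *Vwf*-positive endothelial cells, which were kept apart from LSECs, numbered 161 (control) and 1181 (Maf LSEC-KO). They held *Bmp4* at 244.4 CPM (221.7 to 268.9) and 85.1 CPM (80.8 to 89.5), against 2.47 and 2.23 CPM in LSECs. Within the cluster led by *Rspo3*, *Bmp4*, *Selp* and *Wnt9b*, genes of central vein endothelium, *Vwf*-positive cells held 636.9 CPM in control (576.6 to 701.8, 62 cells) and 691.5 CPM in the Maf LSEC-KO library (654.9 to 729.6, 153 cells). These counting intervals overlapped, while the *Vwf*-positive class of the Maf LSEC-KO library also took in 341 cells of cluster 0, with *Bmp4* at 1.34 CPM. A *Bmp4* UMI was found in 30.4% of *Vwf*-positive cells in control and in 12.1% of those in the Maf LSEC-KO library. The part of this lower share in the lower level of the whole class was not tested. *Bmp4* is a leading gene of the *Rspo3*-led cluster, so its high level there is a description.

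Against LSECs of their own library, *Vwf*-positive cells of control had *Id1* at least 2-fold higher (4.13% of genes tested) and *Bmp2* at least 2-fold lower (1.79%), beside *Bmp4*, which reached 10 CPM in *Vwf*-positive cells alone. *Id1* was at 216.0 CPM (194.7 to 239.1) and *Bmp2* at 911.6 CPM (867.2 to 957.8). Among Maf LSEC-KO cells no member other than *Bmp4* was at least 2-fold higher (1.45%) and none at least 2-fold lower (0.228%), with *Id1* at 330.6 CPM and *Bmp2* at 781.4 CPM. Between the libraries, *Vwf*-positive cells had *Bmp4* at least 2-fold lower (4.12%) and no member at least 2-fold higher (7.24%). *Id1* had a log2 ratio of 0.61 (0.46 to 0.77), *Smad7* of 0.62 (0.51 to 0.74) and *Bmp6* of -0.63 (-0.87 to -0.38), the directions seen in LSECs, and 7 of the 8 immediate early genes were at least 2-fold higher here too. The class drew on unlike clusters, with 62 and 67 of the 161 control cells from control clusters 3 and 6. Of the 1181 Maf LSEC-KO cells, 341 and 190 came from clusters 0 and 1, and 259 and 153 from clusters 5 and 7. The part of this mix in the values of the class was not tested. Of 25 list genes tested, 4 were at least 2-fold lower between the libraries and 0 higher. These were *Inhbb* (log2 -1.07), *Bambi* (-1.02), *Id4* (-1.61) and *Neo1*, which was at 12.2 and 1.95 CPM and thus reached the minimum in control alone. Against LSECs, *Bmper* was at 33.0 CPM in *Vwf*-positive and 10.3 CPM in other control cells, and at 26.6 and 12.8 CPM in the Maf LSEC-KO library. *Fstl1* (106.6 and 2.74 CPM in control, 65.5 and 17.2 CPM in the other library) and *Hey1* (10.4 and 2.13 CPM, 15.7 and 5.73 CPM) were also at least 2-fold higher. In control LSECs *Fstl1*, and in LSECs of both libraries *Hey1*, was under 10 CPM, so these differences are descriptions. *Bambi* was at least 2-fold higher in control alone, at 53.9 and 19.6 CPM.

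In macrophages (219 control and 390 Maf LSEC-KO cells, with medians of 8 and 9 of 11 macrophage markers), endothelial RNA was present. The 6 endothelial genes used to estimate it reached a median of 30.8% of their LSEC level in control macrophages and 14.3% in Maf LSEC-KO macrophages. *Bmp2* was at 573.4 CPM in control and 142.9 CPM in Maf LSEC-KO macrophages, where endothelial RNA alone would give 595.3 and 159.9 CPM. *Eng* was at 607.0 and 165.4 CPM against 602.2 and 194.6 CPM, and *Bmp6* at 40.9 and 15.1 CPM against 49.4 and 12.5 CPM. The levels of these 3 genes in macrophages did not exceed the endothelial RNA level beyond their counting intervals.

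*Acvrl1* was the member that stood out in macrophages. It was at 65.3 CPM (53.1 to 79.5) in control macrophages and at 117.3 CPM (103.8 to 132.2) in Maf LSEC-KO macrophages, where endothelial RNA would give 13.4 and 8.87 CPM, and both values exceeded the 43.5 and 62.2 CPM of LSECs. *Id3* was at 543.7 CPM (507.2 to 582.1) and 444.6 CPM (417.9 to 472.7) against 267.5 and 133.6 CPM. *Id1* was at 74.6 and 106.1 CPM against 29.8 and 35.9 CPM. *Bmpr2* and *Smad7* were also above the endothelial RNA level in both libraries, which made 5 of the 9 members tested. Of all 9221 genes tested in macrophages, 88% were above that level by the same rule, and 87.3% of those also at 10 CPM or more in LSECs of both libraries, so the count of members was below this background. Against the highest instead of the median of the 6 endothelial genes, *Acvrl1* and *Id3* remained, and the share of all genes above that level was not determined.

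Between the libraries, 4 members (*Bmp2*, *Bmp6*, *Eng* and *Bmpr2*) were at least 2-fold lower in Maf LSEC-KO macrophages, against 7.55% of 9221 genes, and none at least 2-fold higher, against 3.9%. The share of endothelial RNA was also lower in these cells, and its part in the 4 values was not tested. *Acvrl1* had a log2 ratio of 0.84 (0.51 to 1.19) and *Id1* of 0.51 (0.18 to 0.84). Of the 8 immediate early genes, 7 were lower in Maf LSEC-KO macrophages, *Fos* and *Atf3* at least 2-fold. In the pathway list, 2 of 19 genes tested were at least 2-fold higher and 3 at least 2-fold lower. The type I TGF-β receptor *Tgfbr1* was at 91.1 and 218.6 CPM (log2 1.26). *Gdf15*, a stress-responsive member of the TGF-β family, was at 8.58 and 38.5 CPM (log2 2.17), and it reached 10 CPM in Maf LSEC-KO macrophages alone, so this is a description. *Tgfbr3* was at 64.0 and 15.2 CPM and *Id4* at 51.5 and 3.46 CPM, under the minimum in Maf LSEC-KO macrophages, and neither was above the endothelial RNA level in either library. *Acvr1*, at 33.0 and 11.7 CPM (log2 -1.50), was above that level in both, where endothelial RNA would give 19.0 and 5.87 CPM. The part of endothelial RNA in these 3 values was not tested. *Maf* itself was at 1522 and 1508 CPM in macrophages, where endothelial RNA would give 1068 and 17.8 CPM.

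Stellate cells were few, with 9 control and 10 Maf LSEC-KO cells that carried at least 9 of 11 stellate markers, a limit set after the counts per cell were seen. Endothelial RNA amounted to 35.4% and 56.1% of the LSEC level in them. They carried medians of 11 and 8.5 of 14 endothelial markers and of 20752 and 19551.5 UMIs. Whether some of these barcodes also held an endothelial cell was not tested. *Bmp4* was at 52.6 CPM (21.1 to 108.3, 7 UMIs) in control stellate cells and 75.0 CPM (42.8 to 121.7, 16 UMIs) in Maf LSEC-KO stellate cells, found in 5 of 9 and 7 of 10 cells. Endothelial RNA would give 0.873 and 1.25 CPM. *Id3* was at 856.1 and 801.1 CPM against 307.6 and 525.6 CPM, and *Smad6* at 127.7 and 220.2 CPM against 63.8 and 114.2 CPM. *Eng* was at 1284 and 913.5 CPM against 692.5 and 765.9 CPM, so that 4 of the 8 members tested exceeded the endothelial RNA level in both libraries, against 54.2% of the 3792 genes tested and 51.6% of those at 10 CPM or more in LSECs of both libraries. Against the highest of the 6 endothelial genes *Eng* no longer did. *Bmp2* was at 923.7 and 543.4 CPM against 684.5 and 629.3 CPM.

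The ligands of the endothelial ALK1 receptor complex were found in stellate cells. *Gdf2*, which encodes BMP9, was at 533.2 CPM (416.4 to 672.5) in control stellate cells and 248.3 CPM (186.0 to 324.8) in Maf LSEC-KO stellate cells, against 0.426 and 0.175 CPM in LSECs. *Bmp10* gave 19 UMIs (142.7 CPM) in control and 6 UMIs in Maf LSEC-KO stellate cells, and *Bmp5* was at 555.7 and 201.4 CPM. The pseudoreceptor *Bambi* was at 270.3 and 84.3 CPM. *Gdf2* had a log2 ratio of -1.10 (-1.64 to -0.57), *Bmp10* of -2.34 (-3.96 to -0.96) and *Bmp5* of -1.46 (-2.04 to -0.90). With *Bambi* (-1.68), *Tgfbr3* (-1.24) and the type II receptor *Acvr2a* (-1.10), these made 6 of the 17 list genes tested at least 2-fold lower, against 7.59% of the 3792 genes tested, and 0 were at least 2-fold higher, against 14%. Endothelial RNA was a larger part of the Maf LSEC-KO stellate cells, at 56.1% against 35.4% of the LSEC level, and its part in these lower values was not tested.

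Of 8 members tested in stellate cells, *Id1* and *Smad7* were at least 2-fold higher in the Maf LSEC-KO library (14% of 3792 genes) and none was at least 2-fold lower (7.59%). *Id1* rested on 3 and 21 UMIs, and both *Id1* values lay at or under the endothelial RNA level. *Smad7* was at 135.2 and 402.9 CPM against 95.7 and 243.6 CPM. All 7 immediate early genes tested were at least 2-fold higher in Maf LSEC-KO stellate cells. Few cells contribute to each value, so these ratios compare 2 small sets of cells.

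**Figure D5:**
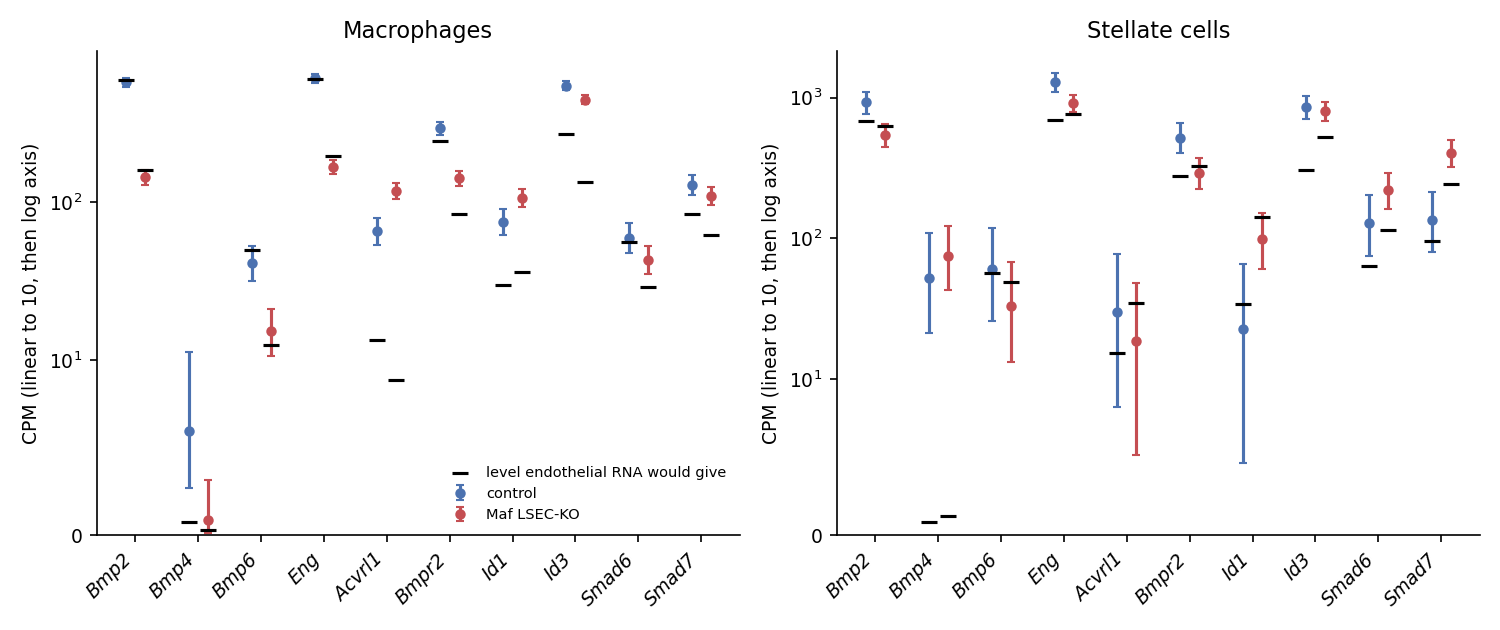
CPM of each member in macrophages (left) and stellate cells (right), control in blue and Maf LSEC-KO in red, with 95% counting intervals and, as black dashes, the level that endothelial RNA alone would give; the axis is linear to 10 CPM and logarithmic above. *Acvrl1* at 65.3 and 117.3 CPM and *Id3* lie well above the dashes in macrophages, *Bmp2* and *Eng* lie near them, and *Bmp4* at 52.6 and 75.0 CPM lies far above them in stellate cells.

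Cholangiocyte-like cells, present as 37 cells in the Maf LSEC-KO library with 1.89% endothelial RNA, held *Id1* at 152.7 CPM (121.1 to 190.1), *Bmpr2* at 124.1 CPM (95.8 to 158.2) and *Bmp6* at 45.8 CPM (29.4 to 68.2). Endothelial RNA would give 4.77, 11.1 and 1.66 CPM.

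Over 14 groups of LSEC cluster and library, the genes with the most similar pattern were sought for each member. *Bmp2* was most like *Cnr2* (Pearson's r of 0.99), *Stard8* (0.97) and *Myo7a* (0.97). *Bmp6* was most like *P2ry1* (0.97), *Fyn* (0.96) and *Slc29a1* (0.96), and *Bmp6* was in turn among the 3 genes most like *Eng* (0.93). *Bmp4* was most like *Msln*, *Igfbp6* and *Mgp* (0.99 each). This rests on control cluster 3 and the *Dcn*-led Maf LSEC-KO cluster 8, with *Bmp4* at 17.7 and 84.4 CPM and at most 1.55 CPM in the other groups. *Id1* was most like *C130074G19Rik*, *Megf6* and *Fbn1* (0.97 each), and *Smad7* was most like the immediate early gene *Dusp1* (0.90). The groups of a library share its depth and processing, and the correlations are descriptions. From cell to cell at 2700 UMIs, the highest rank correlation between any 2 members was 0.16 (*Bmp2* and *Eng*, Maf LSEC-KO), too weak in such sparse counts to be read.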

How the data were processed

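CD146-selected liver cells of 1 control and 1 Maf LSEC-KO library (10x 3′ chemistry, 3 pooled mice each) were analysed. The authors deposited UMI counts per gene and barcode, not normalized, from alignment to mm10 with Cell Ranger 6.0.2 per the labels; the libraries held 47681895 and 89872764 UMIs in 5664 and 7091 barcodes. A minimum of 1500 UMIs and 750 genes per barcode was set, and cells were clustered per library with Seurat 5.3.0 (16 and 20 components, resolution 0.3). Scrublet in scanpy 1.11.5 made 0 automatic calls, so the 225 and 308 highest scores were removed, at the expected doublet rate (decided with the scores known). Clusters were named from marker lists, and stellate cells by cell. Counts were summed per class and scaled to CPM. Poisson, conditional binomial and Clopper-Pearson 95% intervals were used. A gene was tested with at least 10 CPM in either library and 20 UMIs over both, and counted as different at 2-fold. Endothelial RNA was estimated from *Cdh5*, *Kdr*, *Ptprb*, *Egfl7*, *Tie1* and *Clec4g*. The 2-fold rule and intervals were tested on simulated data. Gene positions come from GENCODE M21, promoters from RefSeq (GRCm38.p6). All 10 members, Maf, and list genes past 2-fold or needed to say what a class holds were named; similar genes were the 3 with the highest Pearson's r of log2(CPM + 5) over LSEC groups of at least 50 cells, among genes with at least 50 CPM. Members and lists were chosen with earlier results of these data known. Alternatives covered scaling (including TMM, edgeR 4.0.16), cell filters, depth, landmarks and *Maf* limits.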

Additional observations from a re-analysis of the deposited data

Results flagged for a closer look

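3 results were flagged because the difference between the libraries pointed in opposite directions in 2 cell classes, with both counting intervals clear of 0. *Id3* had a log2 ratio of Maf LSEC-KO over control of 0.11 in LSECs but of -0.29 in macrophages and -0.23 in *Vwf*-positive endothelial cells. *Smad6* had a log2 ratio of 0.17 in LSECs and -0.47 in macrophages. The difference between the classes was not tested. The *Vwf*-positive class also drew on unlike clusters in control and Maf LSEC-KO. The LSEC values of both genes turned negative with scaling to all UMIs or in the LSECs with few immediate early UMIs, and endothelial RNA made up a larger part of the control macrophages (30.8% of the LSEC level) than of the Maf LSEC-KO macrophages (14.3%).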

How the results depend on the processing

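*Id1* was at least 2-fold higher in Maf LSEC-KO LSECs under all alternatives tried (log2 1.19 to 1.42), and *Bmp2* (-1.06 to -0.76), *Bmp6* (-1.07 to -0.83), *Eng*, *Bmpr2*, *Acvrl1* and *Smad7* kept their direction. *Bmp6* passed 2-fold, making 1 member lower instead of 0, with scaling to all UMIs, TMM factors and median of ratios, which moved the median log2 ratio of all genes from 0.14 to -0.07, -0.03 and -0.04 and the share of genes at least 2-fold higher from 10.4% to 7.64%, 8.12% and 8.02%, and the share at least 2-fold lower from 4.54% to 6.48%, 6.17% and 6.23%. *Bmp2* passed it, again 1, in LSECs with few immediate early UMIs (3.89% of all genes), an alternative chosen after seeing the data, as were leaving out low-count clusters, the *Dcn*-led cluster, or all clusters led by large-vessel or stellate markers. *Id3* reversed with scaling to all UMIs (-0.083), TMM factors (-0.051), median of ratios (-0.060) and few immediate early UMIs (-0.017), and *Smad6* with scaling to all UMIs (-0.015) and few immediate early UMIs (-0.020). Without a CPM minimum, 13 of 44 list genes were higher and 7 lower (19.7% and 7.93% of all genes), with no call where both counts were at most 3. With 50 CPM, 0 of 10 were higher and 3 (*Tgfbr2*, *Tgfbr3*, *Id4*) lower (8.09% and 5.57%). With the highest of 6 endothelial genes, also chosen after seeing the data, 2 members exceeded the endothelial RNA level in macrophages and 3 in stellate cells. The share of all genes above that higher level was not determined, so these counts have no background. With the outer 10% of LSECs at each end as zones, 1 member (*Bmp4*) differed 2-fold between portal and central control LSECs, and *Acvrl1* lost its direction. With at least 2 or at least 10 *Maf* UMIs, 0 in place of 1 member was counted past 2-fold between *Maf*-negative and *Maf*-retaining cells, because *Bmp4* was then under the CPM minimum, with log2 ratios of -2.49 and -1.65. Other causes were not tested. No paired analysis was possible because each condition has 1 library. *Bmp4* in LSECs ranged from -1.69 to 0.91 in log2. Few UMIs limit *Bmp4* in LSECs, and few cells (9 and 10) limit the stellate values.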
